A study of Mus musculus with 4 samples.

Results

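The miR-26 family comprises microRNAs (miRNAs) cut from hairpins that lie in the Ctdsp phosphatase genes. Its members here are the 5 listed arms of mmu-miR-26a and mmu-miR-26b, of 1326 miRNAs in the deposited count table. They were taken by name and not by a threshold on any measured value, although earlier results of these data were known. Each arm is 1 of the strands that a hairpin can give. 4 of the 5 arms reached 10 or more counts in at least 2 libraries, as did 584 miRNAs in all, and could be tested. The fifth, miR-26a-1-3p, had 12 counts over all libraries and is described by its counts.

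The samples were retinas of E18.5 mouse embryos, shortly before birth, in 2 groups. Ptf1a+/- embryos carried 1 functional copy of Ptf1a (2 libraries), and Ptf1a-/- embryos carried none (2 libraries). Ptf1a encodes a transcription factor that retinal progenitors need to form amacrine and horizontal cells. Both groups carry a mutant allele, there is no wild-type group among the samples used here, and the labels do not say how the allele was made. Nothing in the labels tells separate animals from repeat libraries within a genotype. The p-values thus rest on the spread between libraries, which may be technical.

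The libraries held between 3647145 and 4385834 listed counts. The Ptf1a+/- libraries lay very close together, with a biological coefficient of variation of 1.39%, against 22.6% for the Ptf1a-/- libraries. miRNAs of retinal neurons and progenitors (miR-9-5p, miR-124-3p, miR-182-5p, miR-183-5p and miR-96-5p, 5 of 5 tested) summed to 336990 to 340223 CPM in Ptf1a+/- and 363414 to 517789 in Ptf1a-/-. CPM here and below are TMM-scaled, a scaling that sets the bulk of miRNAs equal between libraries before counts are expressed relative to library size. The TMM factor was 0.829 in Ptf1a-/- replicate 2 and 1.06 to 1.07 in the other libraries. It divides the counts, so it raises all CPM of Ptf1a-/- replicate 2, the marker sum of 517789 CPM included. The sum is carried by miR-9-5p, miR-182-5p and miR-183-5p. miR-96-5p and miR-124-3p went the other way (log2 fold changes -0.34 and -0.15). The genotypes did not overlap for these, nor for miR-9-5p and miR-183-5p, which were higher in Ptf1a-/-. For miR-182-5p the genotypes overlapped. Of all 584 tested miRNAs, 26.7% had both Ptf1a-/- libraries above both of Ptf1a+/- and 31.5% had both below. None of the 5 markers was called by edgeR.

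Of the 16 markers of other cell types 12 were tested, 0 were higher and 2 were lower, against 6.16 and 3.60% of all 584 miRNAs. The pigment epithelium list (3 of 3 tested) summed to 3689 and 3728 CPM in Ptf1a+/- and 3203 and 3565 CPM in Ptf1a-/-, and its member miR-204-3p was lower (-0.54 ± 0.12, edgeR adjusted p = 0.0436). Vessels and mural cells (2 of 3 tested) summed to 580 and 598 CPM against 337 and 566. Striated muscle (3 of 3) summed to 48.5 and 51.3 CPM against 65.0 and 70.2. For these 3 lists the sums of the genotypes did not overlap. Of the 584 single miRNAs, 26.7% had both Ptf1a-/- libraries above both of Ptf1a+/- and 31.5% had both below. Lens and surface epithelium (3 of 4) summed to 305 and 292 CPM against 227 and 300. Its member miR-200b-3p was lower, with 25 and 31 counts against 1 and 3 (edgeR adjusted p = 0.0124). The more abundant miR-203-3p went the other way, at 100 and 90.6 CPM against 124 and 111 (0.30 ± 0.14, edgeR adjusted p = 0.244). miR-184-3p stood at -0.44 ± 0.28 (edgeR adjusted p = 0.388). Blood cells (1 of 3) summed to 73.3 and 70.4 CPM against 63.7 and 96.0. Neither call held without Ptf1a+/- replicate 1, when edgeR called 0 miRNAs. The red cell miRNA miR-451a had at most 1 count per library, miR-144-3p was at 0 in both Ptf1a-/- libraries, and the smooth muscle miRNA miR-145a-5p in 3 of 4 libraries. The part of these cell types in the values below was not tested.

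A miRNA hairpin is cut from a longer transcript, and then from its loop, to leave a short duplex. The guide strand is loaded into an Argonaute protein and pairs with target mRNAs mainly through its seed, bases 2 to 8. The other strand, the passenger, is mostly degraded. Ctdsp1, Ctdsp2 and Ctdspl encode small phosphatases of the C-terminal domain of RNA polymerase II. These phosphatases work with the repressor REST to keep neuronal genes silent outside neurons. miR-26 has been described as repressing Ctdsp2 during neurogenesis, so that host and miRNA act against each other, and the chromatin enzyme gene Ezh2 is another known target.

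All 5 arms had a mature sequence in RefSeq (GRCm38.p6), and their seeds are printed in capitals to show which arms can address the same targets:

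mmu-miR-26a-5p: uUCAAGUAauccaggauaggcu
mmu-miR-26b-5p: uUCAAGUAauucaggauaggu
mmu-miR-26a-2-3p: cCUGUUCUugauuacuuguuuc
mmu-miR-26b-3p: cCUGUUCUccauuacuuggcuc
mmu-miR-26a-1-3p: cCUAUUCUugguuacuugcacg

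The 5p arms shared the seed UCAAGUA with each other and with no other mature miRNA of the RefSeq table. Over the 21 positions they have in common, counted from 1 at the 5′ end, they were identical at 19 and differed by C11U and C21U (miR-26a-5p first). The 3p arms were more varied. miR-26a-2-3p and miR-26b-3p shared the seed CUGUUCU, while miR-26a-1-3p differed from miR-26a-2-3p within the seed (G4A) and at 6 of 22 positions in all. The seed CUGUUCU was also that of miR-6932-3p, which had 7 to 12 counts per library, and of miR-7039-3p. All 5p arms began with U and all 3p arms with C. Of 144 hairpin names with both arms measured and in RefSeq, the more abundant arm began with U in 53.5% and the less abundant arm with C in 33.3%. Both held together for 20.8%.

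The hairpins are printed with both arms in capitals, because miR-26a-5p is the same in the pair of miR-26a hairpins and only the 3p arm tells these apart:

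Mir26a-1: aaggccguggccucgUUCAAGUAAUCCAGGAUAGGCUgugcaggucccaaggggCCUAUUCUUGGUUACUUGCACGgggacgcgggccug
Mir26a-2: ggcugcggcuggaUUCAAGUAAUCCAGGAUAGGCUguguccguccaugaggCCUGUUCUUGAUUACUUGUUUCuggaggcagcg
Mir26b: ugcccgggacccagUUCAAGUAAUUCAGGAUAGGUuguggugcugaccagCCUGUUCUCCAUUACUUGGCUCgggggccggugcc

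All 3 hairpins lie on the plus strand, as do their host genes (GRCm38, GENCODE M21). Mir26a-1 (chr9:119031796-119031885) lies in Ctdspl, in an intron of 3283 bases in 3 of its 4 annotated transcripts. Mir26b (chr1:74394310-74394394) lies in Ctdsp1, in an intron of 564 bases in 2 of 3 transcripts. In each of these genes the remaining transcript does not span the hairpin. Mir26a-2 (chr10:126995530-126995613) lies in Ctdsp2, in intron 5 (1946 bases) of the transcript with 8 exons. It overlaps an exon in 2 other transcripts of Ctdsp2, 1 of them a retained intron, so the name intronic holds for only part of the annotation of this gene.

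The most frequent read of each arm matched these sequences, apart from 3′ ends. For miR-26a-5p it was the RefSeq sequence in all 4 libraries. For miR-26b-5p it was 1 base longer in all 4 libraries:

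miR-26b-5p, most frequent read: ttcaagtaattcaggataggtT

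The added base, in capitals, is the next base of the hairpin, so that the most frequent miR-26b-5p read has 22 bases like miR-26a-5p. At that length the guides differed by C11T and C21T and were identical at the other 20 positions. Of the 584 tested miRNAs, 23.3% were extended at the 3′ end in all 4 libraries. For miR-26b-3p the most frequent read was the RefSeq sequence in 3 libraries and carried a further T in Ptf1a+/- replicate 2, a base that does not follow in the hairpin. That library had 72 counts for the arm.

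mmu-miR-26a-5p was among the most abundant miRNAs of these retinas. In Ptf1a+/- it held 119432 and 118197 CPM, and in replicates 1 and 2 of Ptf1a-/- 113103 and 131385 CPM. This was 12.7% of all listed counts in each Ptf1a+/- library, 12.0% in Ptf1a-/- replicate 1 and 10.9% in replicate 2. The family as a whole took 11.2 to 13.1% of listed counts. miR-26a-5p ranked 2 in 3 libraries and 3 in Ptf1a-/- replicate 2. By mean CPM over the 4 libraries it stood between miR-9-5p, a neurogenic miRNA (222607 CPM), and miR-182-5p, of the sensory cluster (100905 CPM).

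mmu-miR-26b-5p, the other guide, was lower in every library. It held 3374 and 3291 CPM in Ptf1a+/- and 4470 and 3501 CPM in Ptf1a-/- replicates 1 and 2, and ranked between 33 and 38. Its neighbours by mean CPM were miR-320-3p above (3835 CPM) and miR-370-3p below (3322 CPM).

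The 3p arms were lower again. miR-26a-2-3p held 93.7 and 82.9 CPM in Ptf1a+/- and 103 and 107 CPM in Ptf1a-/-. miR-26b-3p held 12.4 and 15.3 CPM in Ptf1a+/- and 16.3 and 13.2 CPM in Ptf1a-/-. miR-26a-1-3p had 3 and 6 counts in Ptf1a+/- and 3 and 0 in Ptf1a-/-, where a count of 0 allows up to 0.923 CPM (at 3 counts, counting error only). The order of the 5 arms was thus the same in every library, and no arm's range over libraries overlapped that of the next, as the plot of levels shows.

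**Figure D1:**
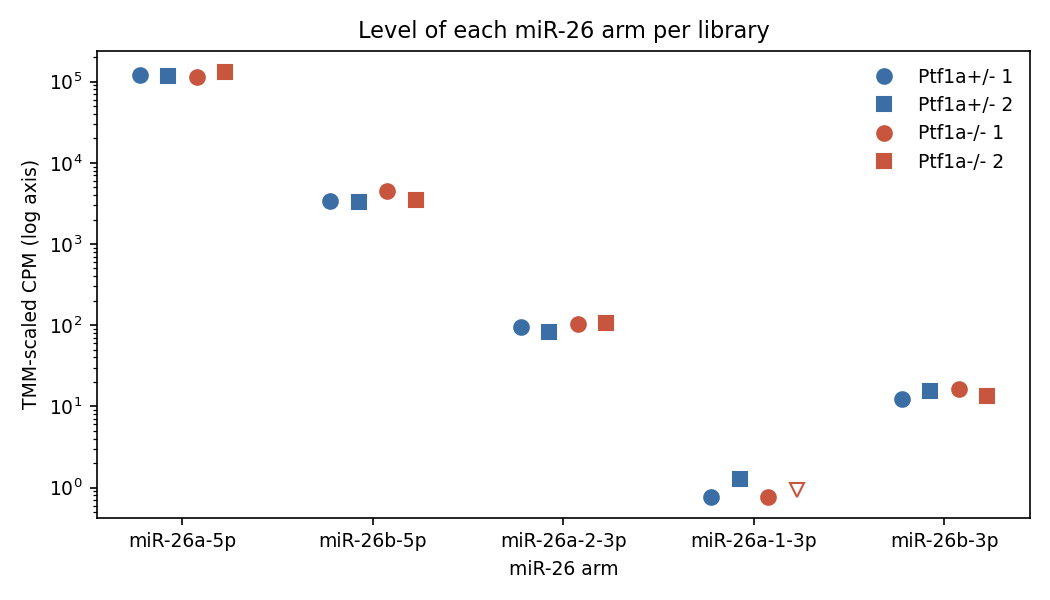
TMM-scaled CPM (log axis) of the 5 miR-26 arms in each library, with Ptf1a+/- in blue, Ptf1a-/- in red, circles for replicate 1 and squares for replicate 2. The open triangle stands for 0 counts and is drawn at the level of 3 counts, 0.923 CPM. The arms fall into 5 separate steps, from 113103 to 131385 CPM for miR-26a-5p down to 1.28 CPM or less for miR-26a-1-3p.

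The 3p arms tell the miR-26a hairpins apart. Of 1511 3p counts of miR-26a over the 4 libraries, 12 came from miR-26a-1-3p, a share of 0.794% (exact binomial 95% interval 0.411 to 1.38%). Per library this share was 0.820% (0.169 to 2.38%) and 1.52% (0.558 to 3.27%) in Ptf1a+/- and 0.746% (0.154 to 2.17%) in Ptf1a-/- replicate 1. Ptf1a-/- replicate 2 had 0 of 347 counts, which allows a share of up to 0.865% at 3 counts (exact binomial upper bound 1.06%). The Ctdsp2 hairpin therefore gave nearly all 3p counts in each library. Adapter ligation and PCR can favour 1 sequence over another, so this share measures counts of arms and not output of the hairpins. miR-26a-5p counts cannot be divided between Ctdspl and Ctdsp2. Between genotypes, 9 against 3 counts of miR-26a-1-3p gave a ratio of 0.401 (Ptf1a-/- over Ptf1a+/-) with a 95% counting interval of 0.0699 to 1.61, so no difference was detectable at this depth.

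Guides outnumbered passengers by large factors in counts. Adapter ligation and PCR may favour the arms differently, so these ratios and ranks describe counts and not molecules. miR-26a-5p counts exceeded the summed miR-26a 3p counts 1264-fold and 1403-fold in Ptf1a+/- and 1090-fold and 1230-fold in Ptf1a-/-. For miR-26b the excess was 272-fold and 215-fold in Ptf1a+/- and 275-fold and 264-fold in Ptf1a-/-. The lowest ratio of miR-26a thus lay far above the highest of miR-26b. Among 173 hairpin names with both arms at 10 or more counts in at least 2 libraries, the more abundant arm exceeded the other by a median of 10.1-fold (0.5 counts added to each arm). The 5p arm was the more abundant in 108 of them. miR-26a had the fourth most unequal arms of the 173, and miR-26b ranked 20. Of the 173 only let-7i, miR-128 and miR-181d, named after their values were seen, were more unequal than miR-26a, miR-128 in favour of its 3p arm. The count minimum leaves out hairpins whose lesser arm was nearly absent, so these ranks hold only among the 173. For example, miR-103-3p had 10250 counts in Ptf1a+/- replicate 1 and miR-103-2-5p had 3.

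**Figure D2:**
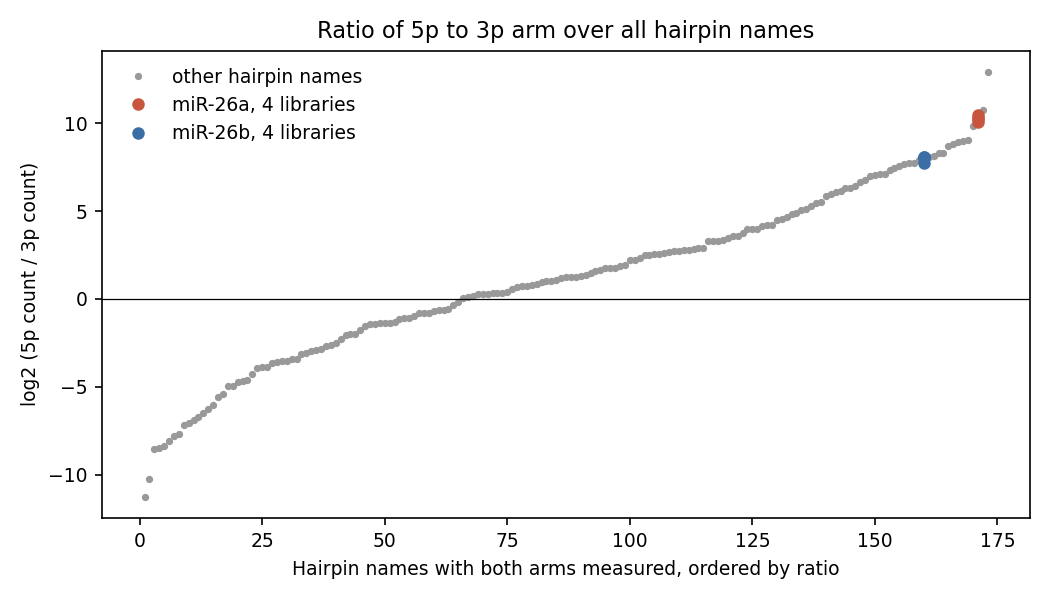
log2 of 5p over 3p counts (0.5 added to each) for 173 hairpin names, ordered by their mean over 4 libraries. Grey points are means of the other names, and coloured points are the 4 libraries of miR-26a (red, 10.09 to 10.45) and miR-26b (blue, 7.74 to 8.09), both near the upper end.

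miR-26b took a larger share of the passengers than of the guides, which restates the arm ratios above on the same counts. It made up 2.75 and 2.71% of the 5p counts of the family in Ptf1a+/-, and 3.80 and 2.60% in Ptf1a-/- replicates 1 and 2. Of the 3p counts it made up 11.6% (exact binomial 95% interval 8.67 to 15.1%) and 15.4% (12.2 to 19.0%) in Ptf1a+/-, and 13.5% (10.6 to 17.0%) and 11.0% (8.10 to 14.6%) in Ptf1a-/-. In every library the lower bound for the 3p arms lay above the 5p share. Ptf1a-/- replicate 1 stood apart in the 5p share, where miR-26a-5p exceeded miR-26b-5p 25.3-fold, against 35.4 to 37.5-fold in the other 3 libraries. This ratio needs no library scaling. On the log2 scale miR-26b-5p over miR-26a-5p was -5.16 ± 0.01 in Ptf1a+/- and -4.95 ± 0.40 in Ptf1a-/- (SD, n = 2 each), a difference of 0.21. The Ptf1a-/- replicates, at -4.66 and -5.23, lay on either side of the Ptf1a+/- libraries. The exact permutation test (two-sided, p = 1) could not decide, since its smallest possible p is 0.333. The counts of both guides ended in a fraction in replicate 1 of each genotype and were whole in replicate 2. No source used here says how reads that could belong to either guide were divided.

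**Figure D3:**
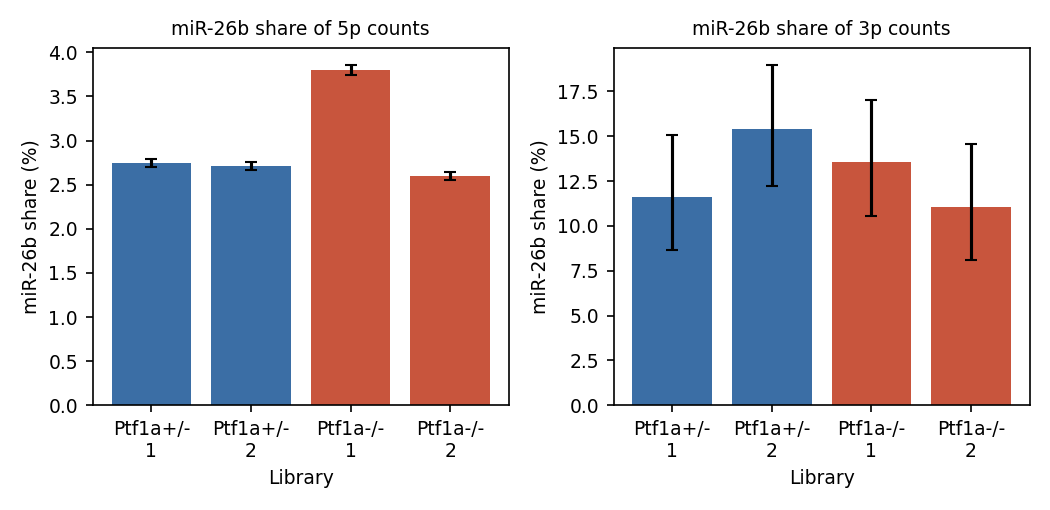
Share of miR-26b in the 5p counts (left) and in the 3p counts (right) of the miR-26 family per library, in percent, with Ptf1a+/- in blue and Ptf1a-/- in red. Error bars are exact binomial 95% intervals and cover counting error only. The 5p share is 2.60 to 2.75% in 3 libraries and 3.80% in Ptf1a-/- replicate 1, while the 3p share is 11.0 to 15.4%.

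The genotype comparison asked whether loss of Ptf1a went with a different level of the miR-26 arms. By edgeR's quasi-likelihood test none of the 4 tested arms passed at 0.05 after Benjamini-Hochberg adjustment over 584 miRNAs, and DESeq2 called none either. Of all 584 miRNAs 57 (9.76%) were called, 36 (6.16%) as higher and 21 (3.60%) as lower in Ptf1a-/-. None of the arms had an unadjusted p under 0.05, as 25.3% of the 584 did. 2 of the 4 arms had both Ptf1a-/- libraries above both of Ptf1a+/-, as did 26.7% of the 584, and 0 had both below, against 31.5%. The median log2 fold change of the 4 arms was 0.17, against 0.00 for all 584. In whole retina, a change in the number of cells that hold a miRNA and a change in its amount per cell cannot be told apart.

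miR-26a-5p stood at 118814 ± 873 CPM in Ptf1a+/- and 122244 ± 12927 CPM in Ptf1a-/- (SD, n = 2 each). The log2 fold change was 0.04 ± 0.16 (SE, edgeR adjusted p = 0.908). Its 95% interval, -0.36 to 0.44, spans 0.782-fold to 1.35-fold. On the TMM scale the groups overlapped, since Ptf1a-/- replicate 1 was the lowest and replicate 2 the highest library. This order rests on the TMM factor of replicate 2 (0.829). As a share of listed counts Ptf1a-/- replicate 2 was the lowest library (10.9%). On that measure both Ptf1a-/- libraries lay below both of Ptf1a+/-. The interval leaves room for a change within these limits, so an equal level was not shown.

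miR-26b-5p stood at 3333 ± 59.1 and 3985 ± 685 CPM (log2 fold change 0.26 ± 0.15, edgeR adjusted p = 0.338; interval -0.10 to 0.62). Its groups did not overlap, Ptf1a-/- being the higher. The difference came mostly from replicate 1, since replicate 2 was only slightly above the Ptf1a+/- libraries.

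miR-26a-2-3p, the passenger of the Ctdsp2 hairpin, stood at 88.3 ± 7.63 and 105 ± 2.72 CPM (0.25 ± 0.14, edgeR adjusted p = 0.321; interval -0.09 to 0.58), and its groups did not overlap either, Ptf1a-/- being the higher. miR-26b-3p stood at 13.9 ± 2.06 and 14.7 ± 2.14 CPM (0.09 ± 0.25, edgeR adjusted p = 0.861; interval -0.53 to 0.71), and its groups overlapped.

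The direction of these small differences depended on the library scaling. With the listed counts as library size, miR-26a-5p stood at -0.15 ± 0.06 and miR-26b-3p at -0.09 ± 0.34, while miR-26b-5p and miR-26a-2-3p stayed above 0. With the totals behind the deposited CPM all 4 arms lay below 0, miR-26a-5p at -0.30 ± 0.09 (edgeR adjusted p = 0.0699) and the others between -0.25 and -0.04. The deposited CPM of miR-26a-5p were 105197 and 106060 in Ptf1a+/- and 92630 and 78594 in Ptf1a-/-, so on that scale the groups did not overlap. The median of all miRNAs shifted too, to -0.18 and -0.34. Relative to that median miR-26a-5p lay at 0.04 (TMM), 0.03 (listed counts) and 0.03 (deposited totals), and miR-26b-5p at 0.26, 0.28 and 0.29. A change of scaling moves all miRNAs by nearly the same amount. These distances thus stay nearly equal by construction and are no test of stability. The part of the deposited totals that is not in the listed counts was 16.3 and 17.05% in Ptf1a+/- and 22.7 and 27.9% in Ptf1a-/-. As a part of the divisor it lowers all deposited CPM of a library, more so in Ptf1a-/-. No source used here says what it holds.

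**Figure D4:**
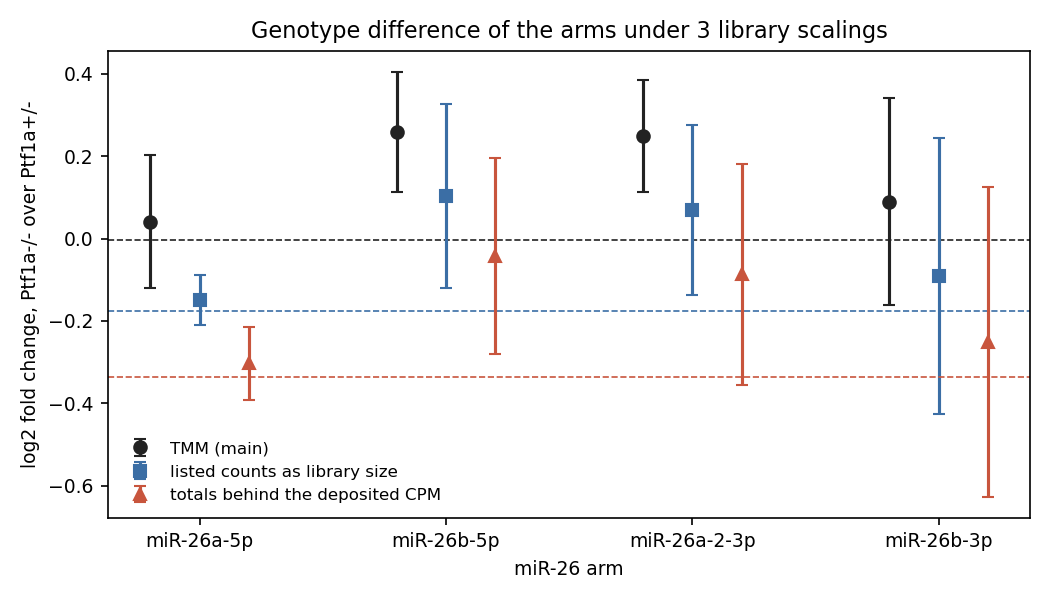
log2 fold change (Ptf1a-/- over Ptf1a+/-) of the 4 tested arms, with SE bars from the edgeR fit, under TMM (black), listed counts as library size (blue) and the totals behind the deposited CPM (red). Dashed lines are the medians of all tested miRNAs, -0.00, -0.18 and -0.34. All arms move down with the medians, since a change of scaling moves all miRNAs by nearly the same amount. The distance of an arm from its line is therefore nearly fixed, and it is small for miR-26a-5p.

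Leaving out 1 Ptf1a-/- library changed the calls, because the spread then came from the close Ptf1a+/- pair alone and the lone Ptf1a-/- library was assumed to vary as little. Without Ptf1a-/- replicate 1, miR-26a-5p was at 0.14 (edgeR adjusted p = 2.87e-08), miR-26b-5p at 0.06 (0.0205) and miR-26a-2-3p at 0.27 (0.0183). Without Ptf1a-/- replicate 2 these were at -0.07 (0.0115), 0.43 (9.65e-61) and 0.23 (0.0350). miR-26a-5p thus passed in opposite directions against the same Ptf1a+/- pair, depending on which Ptf1a-/- library was kept. miR-26a-2-3p had nearly the same value either way. With 1 Ptf1a+/- library left out, none of the arms passed.

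The ratio of the arms, which needs no library scaling, did not pass the test between genotypes either. For miR-26a the log2 ratio of 5p to 3p was 10.38 ± 0.11 in Ptf1a+/- and 10.18 ± 0.12 in Ptf1a-/- (SD, n = 2 each). The difference was -0.20 ± 0.19 (SE, limma adjusted p = 0.622 over 173 hairpin names; 95% interval -0.61 to 0.20). For miR-26b it was 7.91 ± 0.24 and 8.06 ± 0.04, a difference of 0.16 ± 0.24 (limma adjusted p = 0.780; interval -0.36 to 0.67). Both Ptf1a-/- ratios of miR-26a lay below both Ptf1a+/- ratios. Ratios did not overlap between genotypes, in either direction, for 48.0% of the 173. Of the 173, 1 (0.578%) was called, miR-673, named after its value was seen, and 12.7% had an unadjusted p under 0.05, neither miR-26 name among them. Without Ptf1a-/- replicate 2 the difference of miR-26a was -0.29 (limma adjusted p = 0.00132), the spread again resting on the Ptf1a+/- pair.

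The miRNAs with profiles nearest to miR-26a-5p over the 4 libraries were miR-27a-3p, let-7d-3p and miR-101a-3p, by Euclidean distance of centred log2 CPM among 199 miRNAs with a mean of at least 100 CPM. Their distances were 0.05, 0.08 and 0.08, and their log2 fold changes were 0.05, -0.03 and -0.02. miR-26b-5p, which shares the seed, came only at place 122 with a distance of 0.45. With 4 libraries, 2 of them nearly alike, this order is a description.

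Further miRNAs of the same circuit were read as lists. The list of REST and Ctdsp circuit miRNAs holds both arms of miR-124, which represses Ctdsp1, and of miR-9, miR-132 and miR-212. Of 8 members 7 were tested, 0 were higher and 1 was lower, where 6.16 and 3.60% of all tested miRNAs were. The median log2 fold change was 0.07, against 0.00 for all tested miRNAs. The lower one was miR-132-3p, an activity-regulated neuronal miRNA, which had 30.0 and 25.9 CPM in Ptf1a+/- and 15.0 and 13.5 CPM in Ptf1a-/- (-0.96 ± 0.22, edgeR adjusted p = 0.0471). This call was lost under 8 of 10 alternatives, among them DESeq2 (adjusted p = 0.101) and leaving out Ptf1a+/- replicate 1 or 2 (edgeR adjusted p = 0.587 and 0.482), with values from -1.30 to -0.88. The most abundant members were miR-9-5p (0.38 ± 0.20, edgeR adjusted p = 0.300) and miR-9-3p (0.07 ± 0.13, 0.781), and miR-124-3p stood at -0.15 ± 0.13 (0.530).

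A second list held miRNAs that, like miR-26, are known from introns of paralogous genes: miR-103 and miR-107 of the Pank genes, miR-128, miR-153 and miR-218. Of 13 arms 11 were listed, 7 were tested and none was called by edgeR, where 9.76% of all tested miRNAs were, with a median of -0.17 and a range from -0.55 to 0.33. The most abundant were miR-128-3p, at 7371 and 7328 CPM in Ptf1a+/- and 5981 and 7089 CPM in Ptf1a-/-, and miR-103-3p, at 2647 and 2599 against 3521 and 3063 CPM. miR-103-3p (0.33 ± 0.12, edgeR adjusted p = 0.152) and miR-218-5p (-0.55 ± 0.21, 0.173) had an unadjusted p under 0.05, 2 of 7 against 25.3% of all tested miRNAs.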

How the data were processed

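Per the labels' protocols, small RNA (18 to 30 nt) was gel-purified from 1 µg of total retina RNA, and libraries used a New England Biolabs kit. No molecular identifiers are described, so PCR copies could not be told from separate molecules. The exact binomial and counting intervals cover counting error alone, and those of edgeR and limma rest on the spread between libraries. The submitters' processing notes name bcl2fastq (2.20.0.422). No source used here gives the aligner, counter or build. The authors' deposited raw table holds estimated counts (5.73 to 7.84% of values per library not whole), which were rounded, although the design had assumed whole counts. The deposited CPM divide these by 1 larger total per library. The third deposited table is text, with the most frequent sequence per miRNA.

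Genotype was tested with edgeR 4.0.16 (quasi-likelihood, TMM, R 4.3.3) over 584 miRNAs at 10 counts or more in 2 libraries or more. Arm ratios were tested with limma 3.58.1, named copies of an arm being summed. Both were run on simulated data in which the genotypes had equal spread. That run does not cover the unequal spread of these libraries. DESeq2 1.42.0 was an alternative. Adjusted p-values are Benjamini-Hochberg. The named miRNAs are the 5 arms, the 3 nearest profiles, neighbours by mean CPM, and called and the 2 most abundant members of 2 lists. miR-124-3p, miR-218-5p and other names were chosen after their values were seen. Members and lists were chosen with earlier results of these data known. Positions and hosts come from RefSeq and GENCODE M21.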

Additional observations from a re-analysis of the deposited data

How the results depend on the processing

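The 4 tested arms were refitted under 10 alternatives. None passed with DESeq2, either other scaling, no filter on low counts, the replicate block, the Ptf1a+/- pair summed, or a Ptf1a+/- library left out (edgeR, 0 to 1 arm at an unadjusted p under 0.05, and DESeq2 0). 3 passed without either Ptf1a-/- library, so leaving out 1 library gave 0 to 3. Leave-one-out values ranged from -0.068 to 0.14 for miR-26a-5p, 0.063 to 0.43 for miR-26b-5p, 0.15 to 0.31 for miR-26a-2-3p and -0.089 to 0.24 for miR-26b-3p. With listed counts as library size, miR-26a-5p turned to -0.15 and miR-26b-3p to -0.090. With the deposited totals the arms, in the order given, were at -0.30, -0.043, -0.087 and -0.25. These turns went with a shift of all miRNAs, whose median moved to -0.18 and -0.34 under these scalings. Why the libraries differ in their totals was not tested.

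Of all miRNAs, 57 were called (36 higher, 21 lower), against 60 with DESeq2, 16 with listed counts as library size (4 higher, 12 lower), 29 with the deposited totals (2 higher, 27 lower), 21 with no filter, 1 with the Ptf1a+/- pair summed and 0 to 274 with 1 library left out; the 0, by edgeR without Ptf1a+/- replicate 1, came with 46 at an unadjusted p under 0.05. The replicate block gave 12. The differences between replicates 1 and 2 of the genotypes had a correlation of 0.04 over 584 miRNAs. The Ptf1a+/- libraries lay too close together (1.39%) for this value to tell whether same-numbered libraries are pairs. Whether they are pairs thus stays unknown, and the main fit took none. The block changed no call of a miR-26 arm.

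Of the arm ratios 1 was called, and 4 with the replicate block. 0 were called with both arms at 1 or more counts (35 at an unadjusted p under 0.05) or with miR-26a-1-3p alone as the 3p arm (21), where miR-26a turned to 1.62 on 12 counts of that arm (limma adjusted p = 0.340). Leaving out 1 library gave 0 to 54 calls (5 and 7 at an unadjusted p under 0.05 where it was 0), and differences of -0.29 to -0.11 for miR-26a and -0.013 to 0.32 for miR-26b. The 12 counts of miR-26a-1-3p were too few for the test.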
